A study of Sus scrofa with 24 samples.

Results

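Ubiquitin-specific proteases (USPs) form the largest family of deubiquitinases, enzymes that cut ubiquitin off other proteins. Ubiquitin is attached through E1, E2 and E3 enzymes in turn, and a chain of it can send a protein to the proteasome or change its place and partners. USPs undo this step and so stabilise proteins, free them from endosomal sorting or reset histone marks. In muscle, ubiquitin-dependent proteolysis is best known for its part in the turnover of myofibrillar proteins. The roles given below are those known from human and mouse proteins.

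The genes described here are all those whose platform symbol is USP followed by a number, without USP9X and USP9Y. They were 44 genes read by 103 of the 47845 probe sets of the array, and 16 of them had 1 probe set. Where a gene had several, the one with the highest median over fetuses, called the brightest, stood for it. The family was picked on measured values, because USP34 followed the main axis of difference between fetuses closely, so the relation of USP34 with that axis is a description and was not tested. The filter required a probe set to lie above the array median in at least 20 of 24 arrays, and 36 of the 44 genes passed it, out of 9710 genes in all. The other 8 genes, USP18, USP26, USP44, USP46, USP47, USP50, USP51 and USP53, lay below the array median in most arrays even on their brightest probe set, with medians from 4.40 for USP53 to 6.24 for USP46 on the log2 scale.

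RNA came from the longissimus dorsi muscle (LDM), the long back muscle, of 24 F2 fetuses at 63 dpc (days post conception). The fetuses descended from German Landrace (DL) and Pietrain (Pi) pigs, received no treatment and shared 1 F1 father, and each had 1 Affymetrix Porcine Snowball array. The study compared fetuses with intrauterine growth restriction (IUGR) with fetuses appropriate for gestational age (AGA), chosen as sib pairs at the extremes of weight. The deposited labels put no fetus in a weight group, so none was assigned here, no groups were tested and values are given by fetus number. Outside the labels, fetuses 274, 281, 303, 311, 312, 320, 329, 338, 355, 360, 376 and 384 are listed as IUGR and the others as AGA, a listing that entered no calculation. Values are log2 signals after robust multichip average (RMA) normalization, so a difference of 1 is 2-fold. Signals of different probe sets are not compared as levels of their genes, and precision is limited by having 24 arrays.

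Array medians ran from 6.61 to 6.73, and the deposited columns all differed from one another. Of 12 muscle markers, 9 had a named probe set and all 9 passed the filter, with ACTA1, the skeletal actin gene, between 13.01 and 13.54 and CKM, the muscle creatine kinase gene, between 13.36 and 13.62. Markers of tendon, cartilage, fat, blood, vessels and macrophages were also read. Those of fat and macrophages that passed were dim, with medians of 7.11 (FABP4), 7.47 (ADIPOQ) and 7.70 (C1QC). PECAM1 of vessels and CD163 of macrophages did not pass. By the tendon, cartilage, blood and vessel markers that passed, the sample was not muscle fibres alone. In such bulk tissue, fewer cells of a type and less RNA per cell cannot be told apart.

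USP34, the gene that led to the choice of the family, encodes a very large protease that acts on axin in the Wnt pathway. Its signal was highest in fetus 338 at 9.67, followed by fetuses 320 (9.62), 360 (9.50), 311 (9.49), 274 (9.38), 355 (9.38), 329 (9.34), 384 (9.29), 303 (9.24), 312 (9.17) and 376 (9.17). The middle of the order held fetuses 363 (9.11), 370 (8.98), 352 (8.96), 324 (8.95), 327 (8.91), 297 (8.88) and 281 (8.83). The lowest signals were those of fetuses 377 (8.78), 340 (8.78), 307 (8.67), 272 (8.63), 283 (8.54) and 313 (8.50). The median was 9.05. By the weight listing, the fetuses from 338 down to 376 in this order were all IUGR, and fetus 281 was the only IUGR fetus below them. This was not tested, because the labels do not carry the listing. The span of USP34, from the 10th to the 90th percentile of the fetuses, was 0.85 on the log2 scale, or 1.80-fold, against 0.42 for the median gene.

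The main axis was the first principal component of the 9710 genes, which held 39.7% of their variance. Fetus 338 had the lowest score (-27.5) and fetus 313 the highest (21.2). A gene with a strongly negative correlation therefore tended to be higher toward fetus 338 and lower toward fetus 313. USP34 had r = -0.984 (rho = -0.984) with these scores over the 24 fetuses, and 1 gene of the 9710 was more negative. Without fetuses 338 and 313 its r was -0.982. By the weight listing, fetus 281 was the only IUGR fetus with a positive score (7.92). Fetus 363 was the only AGA fetus with a negative score (-1.86). The relation of the scores with the listing was not tested.

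The USP family did not move as a block along this axis. At or under an r of -0.8 lay 10 of the 36 genes (27.8%), against 10.8% of all genes. The 10 include USP34, the gene on which the family was picked. At or over 0.8 lay 1 gene (2.78%), against 2.79% of all genes. The median r was 0.104 for the USP genes and 0.266 for all genes. An r below 0 was found for 18 of the 36 (50%), against 35.3% of all genes. The component was built from the same arrays, so these shares are descriptions without a test. The same 10 genes lay at or under -0.8 without fetus 338, without fetus 313 and without both. The shares of all genes there were 9.54%, 9.91% and 8.59%. The count at or over 0.8 was then 0 each time, against 2.18%, 2.58% and 2.35% of all genes. With shares so low, nothing is read from that count.

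**Figure D1:**
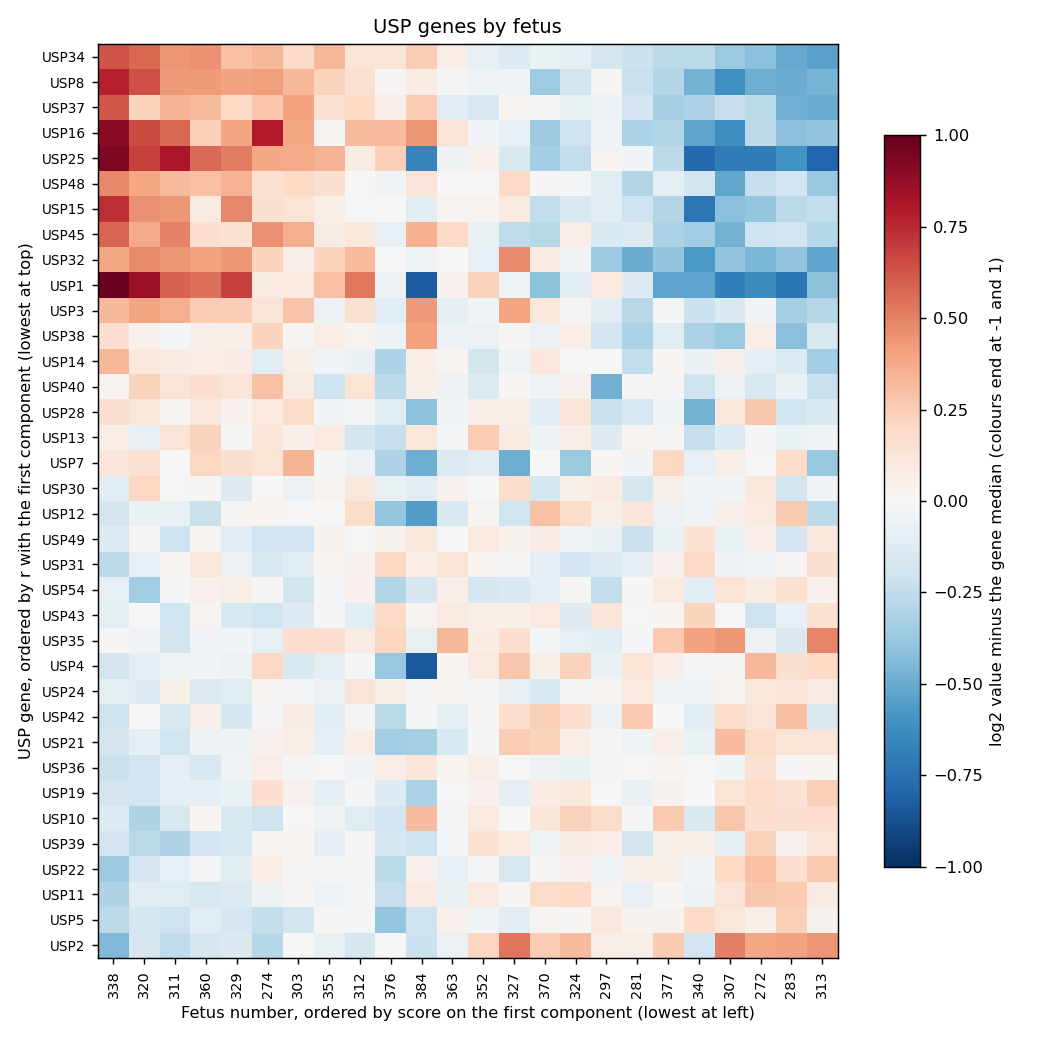
Heat map of the 36 USP genes that passed the filter (rows, lowest r with the first component at the top) in the 24 fetuses (columns, ordered by score on that component). Colour is the log2 value minus the median of the gene, red for higher and blue for lower; the 10 upper rows turn from red in fetus 338 to blue in fetus 313, the lowest rows do the reverse in paler colours, and fetus 384 is blue in USP25, USP1, USP4 and USP12.

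The genes on the negative side had varied known roles. USP8, which deubiquitinates receptors and sorting proteins on endosomes, ran from 7.62 in fetus 307 over a median of 8.23 to 9.01 in fetus 338 (r = -0.970). USP32, a membrane-associated protease of the Golgi and late endosomes, ran from 7.84 in fetus 340 over 8.42 to 8.89 in fetus 320 (r = -0.864). USP15, which acts on TGF-beta receptor and SMAD signalling, ran from 7.01 in fetus 340 over 7.73 to 8.47 in fetus 338 (r = -0.902). All of these were high in the fetuses in which USP34 was high.

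Of those that act in the nucleus, USP16, which removes ubiquitin from histone H2A, ran from 7.42 in fetus 307 over 8.04 to 8.95 in fetus 338 (r = -0.921). USP37, which stabilises cyclin A, ran from 7.79 in fetus 313 over 8.29 to 8.91 in fetus 338 (r = -0.935). USP1, which acts on FANCD2 and PCNA in DNA repair, ran from 6.80 in fetus 384 over 7.63 to 8.62 in fetus 338 (r = -0.853). Fetus 384 stood apart here, since its USP1 was the lowest of all while its USP34 ranked 8 from the top. Without fetus 384, a run added after the data were seen, r was -0.926 for USP1.

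USP25, whose human gene has a muscle-specific isoform, had the widest span of the family at 1.35 (2.54-fold). Its values reached from 8.21 in fetus 313 to 9.93 in fetus 338 (r = -0.917), and fetus 384, at 8.33, lay with the low fetuses, as in USP1. Without fetus 384 its r was -0.968. USP48 ran from 7.98 to 8.98 (r = -0.909) and USP45, which acts on the DNA repair protein ERCC1, from 7.33 to 8.39 (r = -0.880), both lowest in fetus 307 and highest in fetus 338. Fetus 338 was highest in 9 of the 10 genes, USP32 being the exception, and the lowest fetus was 307 in 4 of them, 313 in 3, 340 in 2 and 384 in 1.

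All 10 genes lay above their own median in fetuses 274, 303, 311, 320, 329, 338, 355 and 360, and all 10 at or below it in fetuses 272, 281, 283, 307, 313, 340 and 377. Among the fetuses in between, the number above the median was 8 in fetus 312, 6 in each of 363, 376 and 384, 4 in 327 and 352, 3 in 297, 2 in 370 and 1 in 324. That these genes rank the fetuses alike follows in part from their choice by r.

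**Figure D2:**
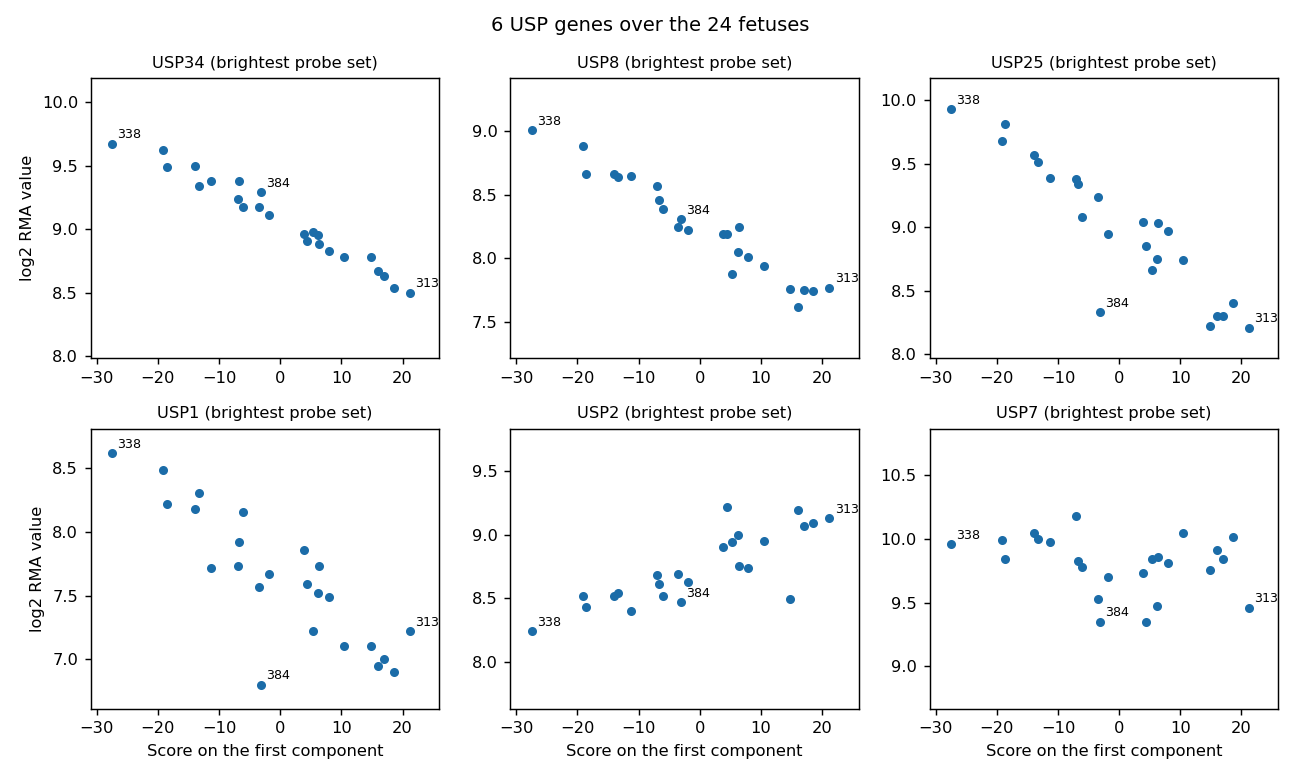
Log2 RMA value of 6 USP genes (vertical axes, all 2.2 log2 units high) against the score of each of the 24 fetuses on the first component, with fetuses 338, 384 and 313 marked. USP34 (r = -0.984) and USP8 (-0.970) follow the axis closely, and fetus 384 lies below fetuses of similar score in USP25 and USP1. USP2 (0.807) runs the other way and USP7 (-0.280) shows little relation on its brightest probe set.

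On the negative side the threshold fell between USP1 and USP3. USP1 lay just inside at -0.853, and USP3, which also acts on histone H2A, just outside at -0.752, lowest in fetus 283 (8.71) and highest in fetus 384 (9.47). USP38 followed at -0.640, USP14, which trims ubiquitin chains at the proteasome, at -0.574 and USP40 at -0.566. USP28, known for stabilising MYC, had -0.348 and USP13 -0.341.

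The genes on the positive side had smaller differences between fetuses. USP2, which acts on cyclin D1 and on clock proteins, was the 1 gene past 0.8 (r = 0.807, rho = 0.757). It ran from 8.24 in fetus 338 over 8.68 to 9.22 in fetus 327, with fetuses 307 (9.19), 313 (9.13), 283 (9.09) and 272 (9.07) next, and fetus 340 at 8.49 was low among fetuses of similar score. Its r was 0.780 without fetus 338, 0.791 without fetus 313 and 0.764 without both, and with all 24 fetuses it was 0.797 with no filter, 0.798 with arrays centred and 0.787 with the background control mean regressed out, so its place past the threshold was not stable. By Spearman's rho the 1 gene past 0.8 was USP5 (0.820). Just outside was USP5, which takes apart free ubiquitin chains, lowest in fetus 376 (7.86) and highest in fetus 283 (8.48), with r = 0.766. USP11 (0.752), USP22 (0.723), USP39 (0.679), USP10 (0.669) and USP19 (0.647) followed.

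USP22 is the protease of the SAGA coactivator complex and was lowest in fetus 338 (8.29) and highest in fetus 272 (8.94). USP39 is a splicing factor without known protease activity with a low of 9.13 in fetus 311 and a high of 9.67 in fetus 272. USP10, which binds the stress granule proteins G3BP1 and G3BP2, had its low of 8.73 in fetus 320 and its high of 9.34 in fetus 384. USP19, which has an isoform anchored in the endoplasmic reticulum and is known from muscle wasting in rodents, lay between 7.82 (fetus 384) and 8.37 (fetus 313). The 7 genes with an r of 0.6 or more lay all above their medians in fetuses 272, 283, 313, 324 and 377 and all at or below them in fetuses 311, 320, 329 and 338.

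The remaining members showed weaker relations on their brightest probe sets. USP7, which acts on MDM2 and p53, ran from 9.35 in fetuses 327 and 384 over 9.84 to 10.18 in fetus 303 (r = -0.280). USP30, the protease of the outer mitochondrial membrane that opposes mitophagy, ran from 9.56 to 9.95 (r = -0.0704). Positive but weaker on that probe set were USP36 (0.576), a nucleolar protease, USP21 (0.566), USP42 (0.462), USP24 (0.444), USP4 (0.408), USP35 (0.402), USP43 (0.360), USP54 (0.331), USP31 (0.295), USP49 (0.283) and USP12 (0.278). For USP24 the other probe sets that passed were all negative, as given below. The dimmest to pass were USP43 (median 6.82), USP49 (6.99) and USP35 (7.34).

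Spans differed within the family. Over the 36 genes the median span was 0.40 against 0.42 for all genes, and 17 of them (47.2%) were wider than the median gene. A span of at least 1 was reached by 3 USP genes, against 2.22% of all genes: USP25, USP1 (1.32, or 2.50-fold) and USP16 (1.04, or 2.05-fold). USP32 (0.93), USP8 (0.91) and USP34 followed. The 10 genes at or under -0.8 had a median span of 0.88 and all 10 exceeded the median gene, whereas the other 26 had a median of 0.35 and 7 did so. Genes of larger span weigh more in the component, so span and r are not independent measures. The narrowest were USP36 (0.20, or 1.15-fold), USP24 (0.23) and USP30 (0.27).

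**Figure D3:**
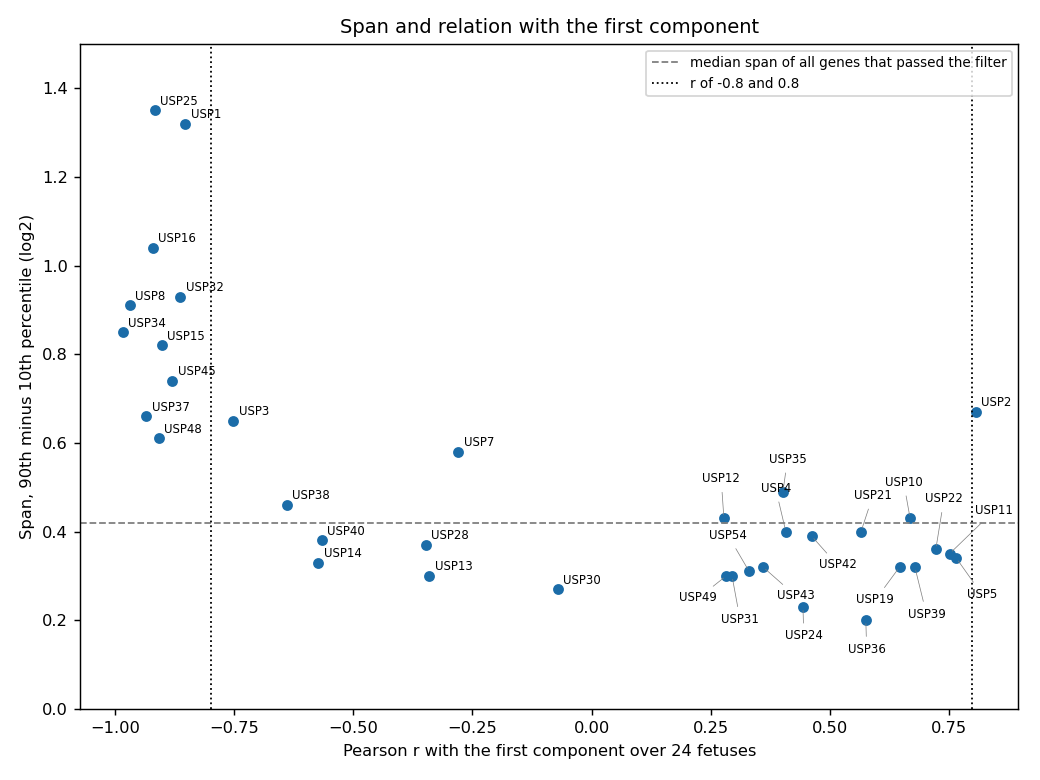
Span of each of the 36 USP genes over the 24 fetuses (vertical axis, log2) against its Pearson r with the first component (horizontal axis). The 10 genes left of the dotted line at -0.8 all lie above the dashed median span of all genes (0.42), while USP2 (0.67), at the line of 0.8, is the widest gene on the positive side.

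Fetus 384 stood apart in several members that did not follow the axis. USP4 was lowest there at 8.27, with fetus 376 next at 8.73 and all other fetuses from 8.93 to 9.44. USP12, which works with the partner protein WDR48, was also lowest in fetus 384 (7.73), then in fetus 376 (7.90), with a highest value of 8.58 in fetus 370. In contrast, USP38 was highest in fetus 384 at 8.61. The r of USP4 was 0.408 with all fetuses and 0.551 without fetus 384, and no USP gene crossed the thresholds of -0.8 or 0.8 without it.

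Other probe sets of the same gene gave a second reading for 24 of the 36 genes. Of the 10 genes at or under -0.8, 7 had other probe sets, of which 4 passed the filter and all 4 were negative. These were USP16 (r = -0.866 with the component), USP32 (-0.862), USP15 (-0.851) and USP48 (-0.728), and they correlated with the brightest probe set at 0.672 to 0.933 over the 24 fetuses. USP34, USP8 and USP25 had 1 probe set each and rest on it. Of the 8 other probe sets that did not pass, 6 were negative, and those of USP1 and USP45 with an r above 0 had medians of 4.40 and 2.33.

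For the other 26 genes the probe sets agreed less. Their 26 further probe sets that passed had a median correlation of 0.0821 with the brightest, from -0.445 for USP31 to 0.910 for USP4. For such genes the r with the component holds for the probe set chosen and not for the gene as a whole.

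USP24, a very large protease, is the clearest case of disagreement. Its brightest probe set had a span of 0.23 and r = 0.444, but the 7 others that passed had spans of 0.37 to 0.67 and r from -0.828 to -0.646, and 3 of them lay at or under -0.8. Those 7 correlated with one another at 0.449 to 0.817 (median 0.671) and with the brightest at -0.431 to -0.04. With the mean of the probe sets that passed, USP24 had r = -0.872 and joined the genes at or under -0.8, which then numbered 11, against 12% of all genes. By that mean USP42, at 0.817, was the 1 gene past 0.8 in place of USP2 (0.735). The mean also narrowed the span of USP7 from 0.58 to 0.28 and moved its r from -0.280 to -0.499.

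**Figure D4:**
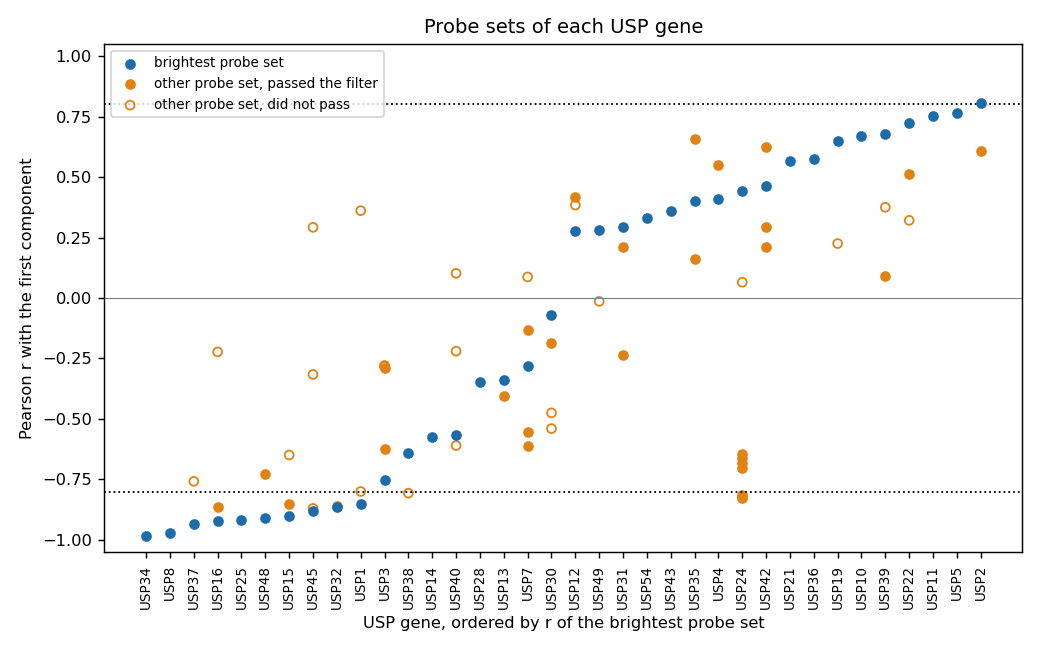
Pearson r with the first component over the 24 fetuses (vertical axis) for every probe set of the 36 USP genes, ordered by the r of the brightest (blue). Orange points are other probe sets, filled where they passed the filter; those of USP24 lie from -0.828 to -0.646 while its brightest lies at 0.444.

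Pairs of USP genes varied together within each side of the axis and ran against each other across it. Over all 630 pairs the median Pearson r over fetuses was -0.0137, against 0.0247 for all pairs of the 9710 genes. Within the 10 genes at or under -0.8 the 45 pairs ran from 0.668 to 0.950 (median 0.848). Within the 7 genes with an r of 0.6 or more, a looser cut, the 21 pairs ran from 0.338 to 0.785 (median 0.619). The unlike cuts keep these medians from being compared. The 70 pairs across them ran from -0.835 to -0.434. The closest pair was USP34 with USP8 (0.950), followed by USP16 with USP8 (0.938), and the most opposed was USP16 with USP5 (-0.835). These signs follow from the choice of the sets by r and are descriptions.

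Over the 24 fetuses the genes most like USP34 were NCKAP1 (r = 0.981), DNAJC13 (0.975), NFAT5 (0.974), KIAA2026 (0.974) and ZRANB2 (0.973). NCKAP1, of the actin-regulating WAVE complex, ran from 9.17 to 10.37. NFAT5 encodes a transcription factor of the osmotic stress response and DNAJC13 an endosomal cochaperone. Among USP genes, USP8 ranked 72 and USP37 185 in likeness to USP34. The genes most like USP2 were FHL2 (0.887), EPHB2 (0.883), the chromatin remodeller gene SRCAP (0.879), PRKAG3 (0.877), which encodes a muscle subunit of AMP-activated kinase, and CRAT (0.872). The nearest USP genes to USP2 were USP11 at rank 300 and USP21 at rank 308.

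Genes listed as deubiquitinases outside the USP family also lay on both sides. The list also holds related genes, USPL1 and COPS6 among them, that are not established deubiquitinases. Of the 40 genes listed, 32 had a named probe set and 27 passed the filter. Of those, 5 (18.5%) lay at or under -0.8 and 0 at or over 0.8, against 10.8% and 2.79% of all genes. The 5 were MYSM1, another histone H2A deubiquitinase (-0.950), USPL1 (-0.899), the polyglutamine disease gene ATXN3 (-0.892), VCPIP1 (-0.876) and UCHL5, of the proteasome (-0.863). COPS6 (0.768) and JOSD1 (0.717) were the most positive. Whether this share differs from that of the USP genes was not tested.

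Of 14 genes for USP partners listed, 12 passed, with 2 (16.7%) at or under -0.8 and 1 (8.33%) at or over 0.8, against 10.8% and 2.79% of all genes. With so few genes, nothing is read from these counts. For USP8, its endosomal partner STAM2 had r = -0.926 and ran from 7.49 to 8.77, STAM had -0.399, and HGS, which pairs with STAM proteins in receptor sorting, had 0.828 and ran from 8.05 to 8.72. WDR48, the activator of USP1, USP12 and USP46, had r = -0.922 and ran from 8.10 to 9.03, next to -0.853 for USP1 and 0.278 for USP12. In the SAGA module, USP22 (0.723) and ATXN7L3 (0.652) were positive and ENY2 (-0.546) was negative. GMPS, a partner of USP7, had -0.612.

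Among genes that supply ubiquitin, 5 of 8 listed passed. The E1 enzyme genes lay at opposite ends, with UBA6 at -0.941 (7.96 to 9.08) and UBA1 at 0.864 (9.74 to 10.35). The ubiquitin genes UBB (0.509) and RPS27A (0.152) and the ubiquitin-like gene ISG15 (0.214) were weaker.

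The axis moved with the signal of background controls, probes that match no transcript. The mean of the 39 controls with 13 or more G or C bases was lowest in fetus 338 (7.30) and highest in fetus 313 (7.94), the same fetuses as the ends of the component, and it had r = 0.767 with the scores over the 24 fetuses. By the weight listing, this mean ran from 7.30 (fetus 338) to 7.77 (fetus 376) in IUGR fetuses. In AGA fetuses it ran from 7.55 (fetus 324) to 7.94 (fetus 313). Because scores, control mean and listing tended to move together, their parts cannot be told apart here and were not tested. A limma fit of each gene held the control mean alone, without dam, sex or weight group. Its p-values treat the 24 fetuses as independent, although they include sibs from several dams and both sexes. With Benjamini-Hochberg adjustment over 9710 genes, 15 of 36 USP genes (41.7%) had a slope below 0 at an adjusted p under 0.05. A slope above 0 at that threshold was found for 4 (11.1%). For all genes these shares were 22.7% and 20.8%. Because controls and scores move together, these slopes are no evidence independent of the component. USP34 was picked for following the component, and the genes at or under -0.8 were set by it. Their calls here therefore follow in part from that choice. USP25 had -0.40 ± 0.064 (SE) log2 per SD of the control mean (limma adjusted p = 5.31e-05). The slope of USP34 was -0.25 ± 0.046, given as a description without a p-value because of how the gene was picked.

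All 10 genes at or under -0.8 were among the 15, with slopes from -0.40 to -0.17, and the others were USP3, USP7, USP14, USP28 and USP40. The 4 with a slope above 0 were USP2 (0.13 ± 0.049, limma adjusted p = 0.0364), USP22, USP31 and USP36. Without fetuses 338 and 313, the count below 0 was 11, against 14.7% of all genes, and the count above 0 was 0, against 5.14%. With the 30 controls of fewer G or C bases instead, 4 USP genes had a slope below 0, against 8.38% of all genes. Of the 36 genes, 30 had a median above 7.94, the highest control mean of any fetus. The brightest class of controls, those with 24 G or C bases, had a median of 9.70, and 2 USP genes lay above it. The part of background signal in the relation of the USP genes with the axis was not tested. With the control mean regressed out of all genes before the component, r was -0.944 for USP34, -0.909 for USP8, -0.856 for USP16 and -0.813 for USP25. Those 4 were the genes left at or under -0.8, against 3.82% of all genes.

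**Figure D5:**
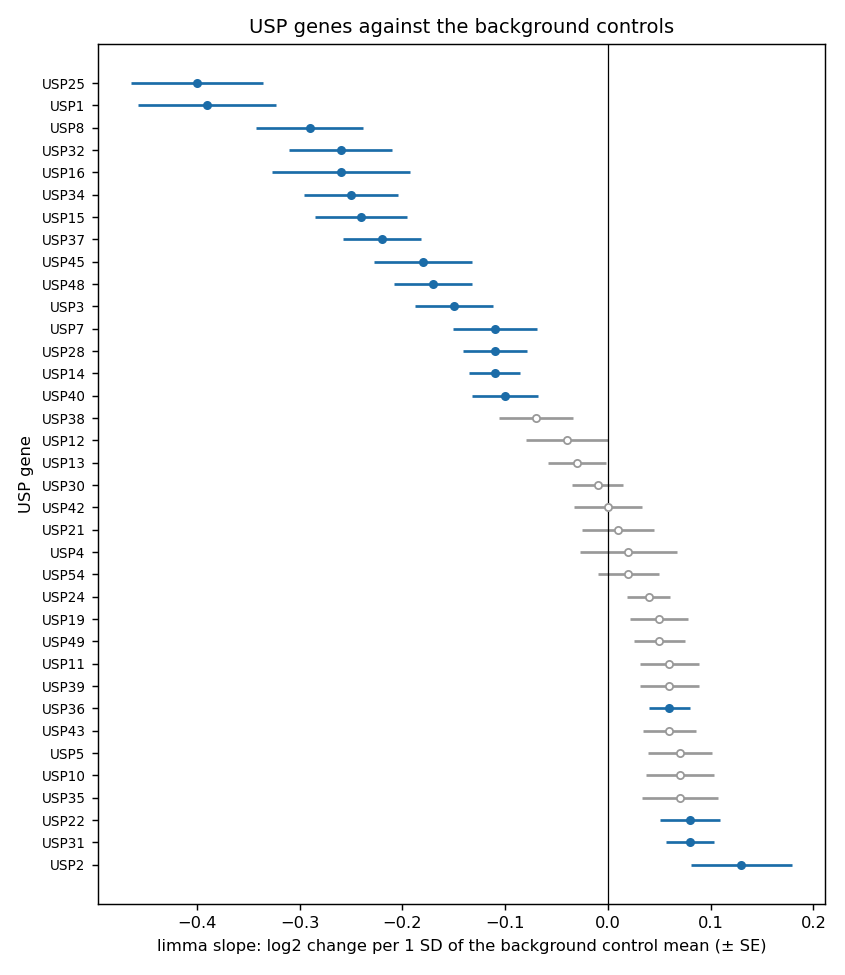
Slope of each of the 36 USP genes on the mean of the background controls (horizontal axis, log2 change per 1 SD of the control mean, points with bars of 1 SE from limma), over the 24 fetuses. Blue marks an adjusted p under 0.05; USP25 (-0.40) and USP1 (-0.39) have the steepest slopes below 0 and USP2 (0.13) the steepest above.

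Markers of other cell types were spread over both sides. EMCN, an endothelial gene, had r = -0.811 and CDH5, another, 0.671. The tendon genes ran from -0.648 (KERA) to 0.265 (FMOD), the cartilage genes from -0.350 (COL11A1) to 0.306 (SOX9), and the fat genes were FABP4 (0.594) and ADIPOQ (0.463). ALAS2 (0.317) and HBB (0.206) stood for red cells and C1QC (0.0575) for macrophages. Of 9 muscle markers, the titin gene TTN was at -0.876, CHRNA1 at -0.750 and the other 7 between 0.457 and 0.740. Their part in the spread of the USP genes was not tested.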

How the data were processed

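Total RNA of 24 samples was hybridized to Affymetrix Porcine Snowball arrays. The authors named GCOS 1.1.1 in the processing notes and normalized the arrays by RMA in Expression Console, and the deposited values are log2 signals per probe set, from 0.78 to 14.62. RMA forces equal signal distributions and so removes overall brightness differences. The genome build behind the array design is not stated in the labels, methods or table. The platform table gave a gene symbol for 26426 probe sets, 325 of them updated through synonyms in the RefSeq table of Sscrofa11.1. Probe sets above the array median in at least 80% of arrays were kept, and each gene was represented by its brightest. The component was taken from gene-centred values (numpy 2.4.6), with the sign set so that fast fibre genes were positive. Slopes on the control mean alone were fitted with limma 3.58.1 in R 4.3.3, with a threshold of 0.05 after Benjamini-Hochberg adjustment. Both steps were tested on simulated data. Neither labels nor the table give scan dates or other batches. The members, gene lists and thresholds were chosen with earlier results of these data known. Named in full were USP34, the 4 members of widest span, the 4 at either end of the component, the 3 brightest and 3 dimmest and those beside the thresholds, with the 5 genes most like USP34 and USP2. Alternatives were another filter, the mean of probe sets, array centring, gene scaling, Spearman's rho, the component without USP genes, symbols as given, left-out fetuses, other controls and the control mean regressed out. No protein or probe sequences were used here.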

Additional observations from a re-analysis of the deposited data

How the results depend on the processing

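The count of 10 USP genes at or under -0.8 stayed between 10 and 11 under all alternatives but 1, against 8.59% to 12% of all genes. With the control mean regressed out it was 4, against 3.82% of all genes. The count at or over 0.8 was 0 with no filter, with arrays centred, without fetus 338, without fetus 313 and without both. In those settings the share of all genes was 1.43% (no filter) to 2.58% (without fetus 313), so nothing is read from that count. With the control mean regressed out it was 2 (USP11 and USP21), against 4.48% of all genes. USP genes with a slope below 0 on the controls numbered 4 with the controls of fewer G or C bases, and those with a slope above 0 numbered 0 without the 2 fetuses farthest on the control mean (338 and 313). Both limma shares fell over all genes too, to 8.38% below 0 with the former and 5.14% above 0 with the latter, so fewer genes were called overall. The slope of USP34, the gene picked for following the component, ran from -0.27 to -0.19 under its 6 alternatives. It follows in part from that choice and is a description. The median span ran from 0.37 to 0.42, or 0.24 as interquartile range. The number of arrays, and dim signal near the background controls, limit these values. No paired analysis was made, because groups were taken from the labels, which give no groups or pairs. The weight listing outside them, which gives dam and sex as well, entered no test.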
